A study of Mus musculus with 8 samples.

Results

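The genes described here encode the factors that hold RNA polymerase II (Pol II) at promoters, release it and carry it through genes: the kinase P-TEFb and its 7SK inhibitor, DSIF and NELF, the super elongation complex, the PAF1 complex, histone chaperones and TFIIS, 2 further kinase modules, and polymerase, Integrator and TREX-2 or SAGA subunits. The 37 genes were taken by symbol from the table of the whole series, with no use of measured values. All 37 were among its 37799 genes, and all 37 passed the filter on low values, which left 20662 genes over 8 libraries. The samples were mouse embryonic stem cells, derived from 129 mice and grown without feeder cells in serum with LIF, all with the genotype Ythdc1_cKO, a conditional knockout of Ythdc1, whose protein binds N6-methyladenosine in nuclear RNA. They were given DMSO, the solvent control, or 1 µg/ml 4OHT (4-hydroxytamoxifen, an agent that switches on inducible Cre recombinases) for 4 days. The labels used here do not say which Cre transgene or promoter the cells carried. All groups then received 100 µM DRB, an inhibitor of the kinases that release Pol II, for 3 h. After the inhibitor was washed out, new RNA was labelled with 1 mM 4-thiouridine (4sU) for 0 or 8 min, pulled down through biotin and sequenced. The 4 groups (DMSO 0 min, 4OHT 0 min, DMSO 8 min and 4OHT 8 min) held 2 libraries each, here called numbers 1 and 2. The column names carry these numbers after the cell name, at both times and in both treatments, and may mark 2 derivations of cells. No label says whether the libraries came from separate cultures. A p-value therefore covers no more than the spread between such libraries, which may be technical. By their titles, however, the 0 min samples came from embryonic stem cells numbered 1 and the 8 min samples from those numbered 2. Titles and column names thus conflict, and by the titles labelling time and cell derivation cannot be told apart.

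After initiation, Pol II pauses a short way into most genes, held by DSIF and NELF. P-TEFb, a kinase of Cdk9 with cyclin T, phosphorylates NELF, DSIF and the polymerase and so releases it, and the 7SK RNA particle with Hexim1, Larp7 and Mepce holds P-TEFb inactive. The super elongation complex brings active P-TEFb to genes, and the PAF1 complex, Spt6, FACT and TFIIS travel with the polymerase and help it through chromatin. Because DRB blocks P-TEFb and related kinases, these genes encode the machinery that the assay itself stops and restarts, and they were read here only as transcripts.

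Recovered reads ranged from 46.3 to 61.4 M (M, mega) per 0 min library and from 93.1 to 134 M per 8 min library. The divisor that turned reads into deposited values ranged from 8.10 to 29.5 between libraries and what it stands for is not given in the sources used here. Number 2 of 4OHT at 0 min stood apart: it gave the highest of the 0 min values for 69.4% of all genes tested. Ythdc1 itself, scaled relative to the other genes at 8 min, stood at 2941 and 3592 in the DMSO libraries and 2028 and 2459.8 in the 4OHT libraries, a log2 fold change of -0.54 ± 0.13 (SE, n = 2 per group, adjusted p = 0.00231). On the deposited scale it read 1409 and 2708 with DMSO and 2696 and 5168 with 4OHT (0.93, adjusted p = 0.171), and at 0 min 133 and 185 with DMSO and 129 and 412 with 4OHT (0.55, adjusted p = 1), so its direction at 8 min differed between these scales. The table does not show which exons its reads came from. All 8 embryonic stem cell markers exceeded a deposited value of 10 in each 8 min library, but relative to the other genes 3 were called lower with 4OHT and 1 higher (median -0.20), and their scaled sums lay at 6921 and 6392 for DMSO and at 5514 and 5583 for 4OHT. The 6 markers of 2-cell-like cells at 8 min summed to scaled values of 15.0 and 15.1 in the DMSO libraries and 169.5 and 174 in the 4OHT libraries, and none of them was above 10 in every library. At 0 min the deposited sums read 4.02 and 3.39 for DMSO and 4.26 and 65.3 for 4OHT, so number 1 of 4OHT at 0 min lay near the DMSO libraries. Fibroblast markers at 8 min summed to 58.0 and 74.0 for DMSO and 26.9 and 38.8 for 4OHT, where only 2 of the 6 were tested and both were called lower. Primitive endoderm markers summed to 70.7 and 59.3 for DMSO and 62.2 and 66.2 for 4OHT, with 0 called. Trophoblast markers summed to 77.9 and 79.7 for DMSO and 73.1 and 75.3 for 4OHT, with 1 called higher and 1 lower. Neuroectoderm markers summed to 198 and 192 for DMSO and 272 and 307 for 4OHT, with 1 of the 3 tested called higher and 0 lower. Mesoderm markers summed to 48.1 and 50.4 for DMSO and 29.4 and 27.0 for 4OHT. Of the 4 mesoderm markers, however, only 2 were tested relative to the other genes, with 1 called higher and 0 lower (median 0.33). Only 1 of them exceeded 10 in each 8 min library, so their sum and their calls pointed in different directions. The part of these marker shifts in the results below was not tested.

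On the deposited scale, the elongation factor genes were higher with 4OHT at 8 min, by about as much as the table as a whole. Of the 37 genes, 29 rose (78.4%) and 0 fell, against 58.7% of all 20662 genes tested that rose, 0.131% that fell and 58.8% called either way. The median change was 1.39 for the 37 genes and 1.43 for all genes, on the log2(value + 1) scale, and 29 of the 37 lay within 0.25 of the median of all genes, as did 39.7% of all genes. No member fell at an unadjusted p under 0.05 either, where 36 of all genes did. With edgeR on recovered reads 0 were called lower, against 0.0871% of all genes. Both 4OHT libraries lay above both DMSO libraries for all 37 genes, a pattern shared by 90.3% of all genes, while 0.484% showed the opposite. Under median-of-ratios, quantile or spike-in scaling 0 of the 37 genes were called, but so were 0.145%, 0.315% and 0.145% of all genes, and the shift of the whole table itself went from 1.43 to -0.08, -0.0064 and 0.12. The members higher numbered 13 with edgeR (43.5% of all genes higher), 6 with no filter on low values (17.6%) and 19 with the 8 min libraries alone (61.7%). Leaving out number 1 of DMSO or number 2 of 4OHT at 8 min left 0 calls (1.46% and 0.404% of all genes higher), and leaving out number 1 or 2 of DMSO at 0 min left 8 and 9 (44.4% and 45.2%). Without number 1 of 4OHT or number 2 of DMSO at 8 min the counts were 16 and 18 (51.6% and 46.1%).

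Changes relative to the other genes were therefore read after the 8 min libraries had been scaled to a common level by the median of ratios over the 20008 genes tested there. Signal at 0 min, where RNA had no labelling time, was not subtracted. In such bulk samples fewer cells of a type and less RNA per cell cannot be told apart. On this scale 1 of the 37 genes was called higher with 4OHT, Ctr9, and 3 were called lower, Larp7, Supt16 and Supt4a. The background was 18.8% of all genes called higher, 17.1% called lower and 35.9% called either way, against 10.8% of the elongation factor genes. Their median change was -0.07 against -0.0015 for all genes, and 30 of the 37 lay within 0.25 of the median of all genes, as did 40.2% of all genes. Both 4OHT libraries lay below both DMSO libraries for 13 of the 37 genes and above for 4, while each of these patterns held for 33.8% of all genes. At an unadjusted p under 0.05 the counts were 2 higher and 5 lower of the 37, against 4675 higher and 4348 lower of the 20008 genes. The remaining 33 genes ranged from -0.28 (Ssrp1) to 0.25 (Ell). The 4 calls rest on a spread pooled over genes by expression level: without that trend 0 of the 37 genes passed, where 22.6% of all genes did. With all 8 libraries scaled together 0 passed as well, but only 0.145% of all genes did, and the changes of the 4 genes were of similar size there, at 0.42 for Ctr9, -0.61 for Larp7, -0.43 for Supt16 and -0.41 for Supt4a.

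**Figure D1:**
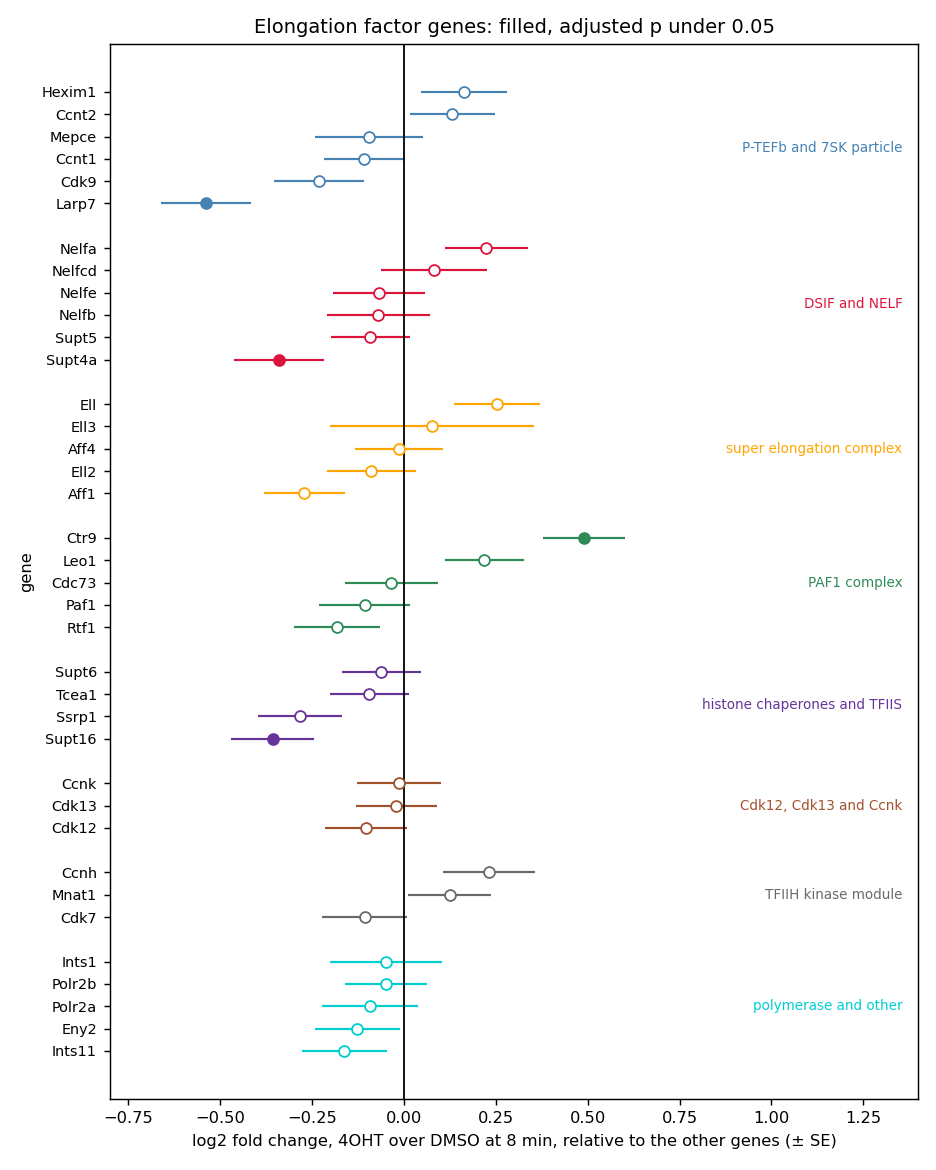
Log2 fold change of 4OHT over DMSO at 8 min relative to the other genes (x axis) for the 37 elongation factor genes (y axis), grouped and coloured by complex. Points are limma estimates from 2 libraries per group, bars the standard error, and filled points the 4 genes with an adjusted p under 0.05, with Ctr9 alone on the right and Larp7, Supt16 and Supt4a on the left.

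Of the genes of the PAF1 complex, which binds elongating Pol II and supports histone modification along genes, Ctr9 was called and 4 were not. Ctr9, the scaffold subunit (chr7:111028951-111056377, GRCm38.p6), had scaled values of 344 and 320.0 in the DMSO libraries and 477 and 456 in the 4OHT libraries. Both 4OHT libraries were above both DMSO libraries, with means of 332 ± 16.7 with DMSO and 466 ± 14.8 with 4OHT (SD, n = 2). Ctr9 rose by 0.49 ± 0.11 relative to the other genes, 1.41-fold (adjusted p = 0.00133), and kept its call with each 8 min library left out in turn. Over the alternatives tried its adjusted p reached 0.0504 without the trend and 0.690 with all 8 libraries scaled together. Leo1, a subunit that helps join the complex to the polymerase, stood at 491 and 508 with DMSO and 596 and 567 with 4OHT, also without overlap, with a change of 0.22 that was not called (adjusted p = 0.115). Paf1, which gives the complex its name, had 204 and 194 with DMSO and 184 and 186 with 4OHT (-0.11). Cdc73, known as parafibromin, varied more between libraries of a group than between groups, with 1126 and 1488 with DMSO and 1159 and 1378 with 4OHT (-0.03). Rtf1, which supports histone H2B ubiquitination, had 483 and 580.2 with DMSO and 495 and 439.7 with 4OHT (-0.18, adjusted p = 0.236).

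The ratio of 2 genes within a library needs no scaling between libraries. The ratio of Ctr9 to Paf1 was 1.68 and 1.65 with DMSO and 2.59 and 2.46 with 4OHT. Ctr9 to Leo1 gave 0.70 and 0.63 in DMSO libraries and 0.80 and 0.80 in 4OHT libraries. Ctr9 to Rtf1 was 0.712 and 0.552 against 0.964 and 1.04. Ctr9 to Cdc73 was 0.305 and 0.215 against 0.411 and 0.331. In each of these 4 pairs both 4OHT libraries lay above both DMSO libraries. Ctr9 was picked for its call in these same libraries, as were Larp7, Supt4a and Supt16, so such ratios are a description, and the difference between partners was not tested.

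Among the genes of P-TEFb and the 7SK particle, Larp7 was called lower and 5 were not called. Larp7, the protein that binds and protects the 3′ end of 7SK RNA (chr3:127536714-127553349, minus strand), had scaled values of 334 and 395 in the DMSO libraries and 233 and 268 in the 4OHT libraries. The groups did not overlap, and the means were 365 ± 43.6 with DMSO and 251 ± 25.1 with 4OHT (SD, n = 2). Larp7 fell by 0.54 ± 0.12 on the log2 scale relative to the other genes, to 0.689 of the DMSO level (adjusted p = 0.00141), and was called with each 8 min library left out in turn. Its adjusted p ranged up to 0.0635 without the trend and 0.350 with all 8 libraries scaled together. On the deposited scale it was the member that changed least, with 159.8 and 298 with DMSO and 309 and 564 with 4OHT and a log2 fold change of 0.93 ± 0.58 (adjusted p = 0.135). Larp7 contains the genes of the Mir302 and Mir367 cluster on the opposite strand. The strand counted is not given in the sources used here. Those 5 rows held at most 5.56 in any 8 min library, but each covers only 66 to 75 bases. How many of the Larp7 reads came from the opposite strand therefore cannot be told.

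Mepce, the enzyme that caps 7SK RNA, stood at 107 and 109.8 with DMSO and 104 and 99.4 with 4OHT (-0.09). Hexim1, which binds P-TEFb on 7SK RNA and inhibits it, had 939 and 779 with DMSO and 1031 and 889 with 4OHT (0.16, adjusted p = 0.292), with groups that overlapped. The ratio of Larp7 to Mepce was 3.12 and 3.60 with DMSO and 2.25 and 2.7 with 4OHT, and that of Larp7 to Hexim1 was 0.355 and 0.508 against 0.226 and 0.302. Both ratios were thus lower in both 4OHT libraries.

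Cdk9, the P-TEFb kinase, had scaled values of 223 and 212 with DMSO and 187 and 184 with 4OHT (-0.23, adjusted p = 0.149). Its groups did not overlap, but the change was not called. Ccnt1, the main cyclin partner of Cdk9, stood at 1391 and 1529 with DMSO and 1398 and 1312 with 4OHT (-0.11). Ccnt2, the other cyclin T, stood at 1606 and 1864 with DMSO and 1825 and 1970.4 with 4OHT (0.13). Within libraries, Ccnt1 over Ccnt2 was 0.866 and 0.820 in DMSO libraries and 0.766 and 0.666 in 4OHT libraries. The 7SK RNA itself (Rn7sk), made by RNA polymerase III and no member of the list, had 6436 and 7123 with DMSO and 5152 and 5624 with 4OHT and a change of -0.33 ± 0.14 that was not called (adjusted p = 0.0679). It is shown after its values were seen, since Larp7 binds it.

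**Figure D2:**
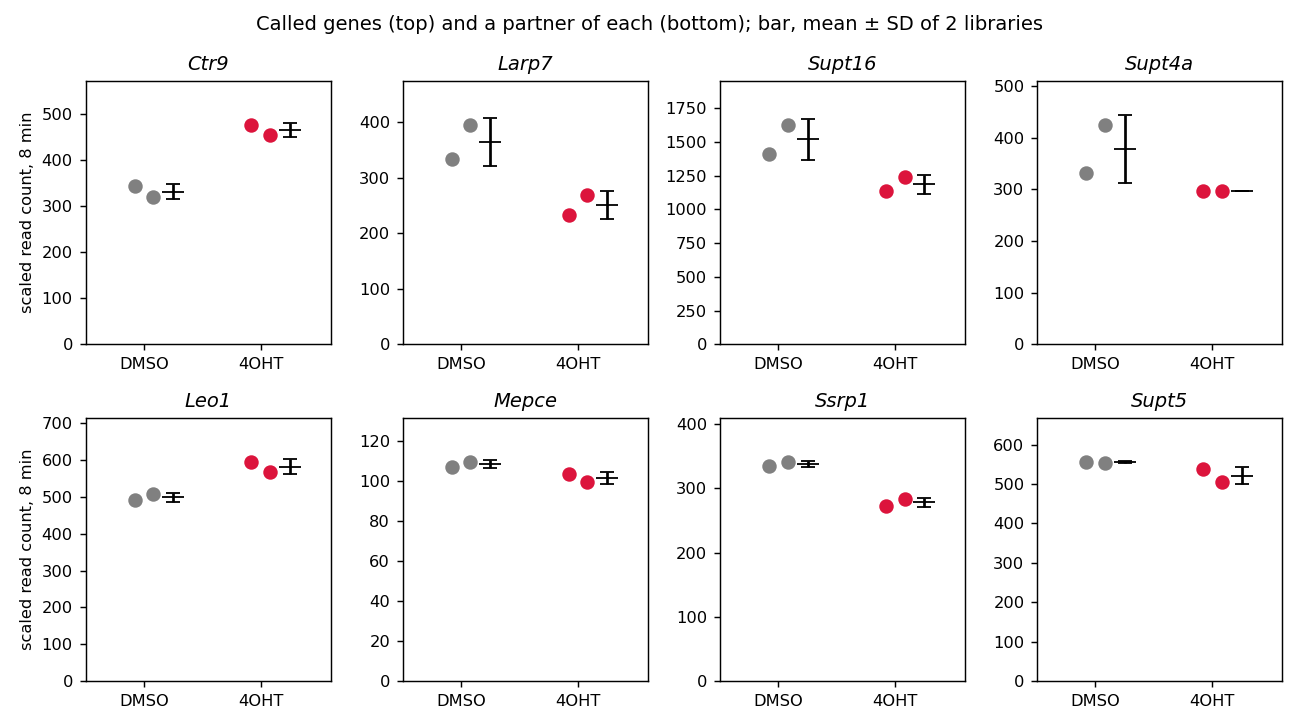
Scaled read count (y axis, starting at 0) in each 8 min library for the 4 called genes (top row) and a partner of each (bottom row), with DMSO in grey and 4OHT in red. Points are libraries, and bars the mean ± SD of 2 libraries. Ctr9 is higher in both 4OHT libraries, Larp7, Supt16 and Supt4a are lower in both, and of the partners Leo1 is higher and Mepce, Ssrp1 and Supt5 lower in both 4OHT libraries by amounts that were not called.

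DSIF is a pair of proteins, Spt4 (Supt4a) and Spt5 (Supt5), that clamps on Pol II and acts both in pausing and in elongation. Supt4a (chr11:87737551-87743623, plus strand) had scaled values of 333 and 425 in the DMSO libraries and 297 and 297 in the 4OHT libraries. Number 2 of DMSO was the highest and both 4OHT libraries were alike, with means of 379 ± 65.5 with DMSO and 297 ± 0.324 with 4OHT (SD, n = 2). Supt4a fell by 0.34 ± 0.12 relative to the other genes, to 0.79 of the DMSO level (adjusted p = 0.0331). The change itself was -0.17 without number 2 of DMSO and -0.52 without number 1 of DMSO, so it depends on which DMSO library is kept. The call was lost without number 2 of DMSO (adjusted p = 0.372), number 1 of 4OHT (0.126) or number 2 of 4OHT (0.118), within a range of 0.0021 to 0.549 over all alternatives. Supt5 stood at 557 and 553 with DMSO and 537 and 505 with 4OHT (-0.09, adjusted p = 0.542). The ratio of Supt4a to Supt5 was 0.597 and 0.769 with DMSO and 0.553 and 0.587 with 4OHT.

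None of the 4 genes of NELF, the complex that stabilises the pause, was called. Nelfa had 294 and 310.1 with DMSO and 359.6 and 346 with 4OHT (0.22, adjusted p = 0.124) and was higher in both 4OHT libraries. Nelfb had 122 and 141 with DMSO and 125 and 125 with 4OHT (-0.07). Nelfcd, which in the mouse carries the forms C and D of 1 gene, had 124 and 107 with DMSO and 121 and 122 with 4OHT (0.08). Nelfe, the subunit with an RNA binding domain, had 182 and 195 with DMSO and 184 and 176 with 4OHT (-0.07). Nelfb, Nelfcd and Nelfe had overlapping groups.

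FACT is a histone chaperone of Spt16 (Supt16) and Ssrp1 that takes apart and restores nucleosomes around the polymerase. Supt16 (chr14:52160419-52197239, minus strand) had scaled values of 1414 and 1627 in the DMSO libraries and 1134 and 1237 in the 4OHT libraries. The groups did not overlap, and the means were 1521 ± 150.5 with DMSO and 1185 ± 72.9 with 4OHT (SD, n = 2). Supt16 fell by 0.36 ± 0.11 relative to the other genes, to 0.781 of the DMSO level (adjusted p = 0.0161). The call was lost without number 2 of DMSO (adjusted p = 0.0889) or number 1 of 4OHT (0.245), within a range of 0.00121 to 0.459 over all alternatives. Ssrp1, its partner, stood at 335 and 342 with DMSO and 273 and 284 with 4OHT and moved the same way without being called (-0.28 ± 0.11, adjusted p = 0.0548). It was called lower at a minimum value of 100 (adjusted p = 0.0207), by quantile normalization (0.0258) and by DESeq2 (0.046). The ratio of Supt16 to Ssrp1 was 4.22 and 4.76 with DMSO and 4.15 and 4.36 with 4OHT, with overlapping groups. Supt16 shares 921 bases with its neighbour Rpgrip1, and reads there could belong to either gene. With DMSO its deposited values were 315 and 398 at 0 min and 677 and 1227 at 8 min. How much of its 8 min signal was background was not tested.

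Supt6 (Spt6), a histone chaperone that also contacts Pol II, had 907 and 941 with DMSO and 910.1 and 862 with 4OHT (-0.06). Tcea1 (TFIIS), which lets a backtracked polymerase cut its RNA and resume, had 1231 and 1320.5 with DMSO and 1189 and 1199.5 with 4OHT (-0.09). Its pseudogene Gm6104 lies within it, so its reads may be split between them. Neither gene was called.

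None of the 5 genes of the super elongation complex was called. Ell, an elongation factor that raises the rate of Pol II, had scaled values of 380.1 and 424 with DMSO and 521 and 440.2 with 4OHT and the highest change among uncalled members (0.25 ± 0.12, adjusted p = 0.0918). Both 4OHT libraries were above both DMSO libraries, and Ell was called without number 2 of DMSO (adjusted p = 0.0477) or number 2 of 4OHT (0.0229). Its relatives had 289.8 and 264 with DMSO and 279.6 and 242 with 4OHT for Ell2 (-0.09). Ell3 was the lowest member, at 18.8 and 16.9 with DMSO and 21.7 and 16.3 with 4OHT (0.08 ± 0.28), and with so few reads had the widest error. Aff1, one of the scaffold proteins, had 426 and 445 with DMSO and 371 and 351 with 4OHT and was lower in both 4OHT libraries without being called (-0.27 ± 0.11, adjusted p = 0.0586). It was called lower at a minimum value of 100 (adjusted p = 0.0198), by quantile normalization (0.0243) and by DESeq2 (0.0489). Aff4, the scaffold best known for holding P-TEFb, had 2174 and 2531 with DMSO and 2263 and 2386 with 4OHT (-0.01).

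Kinases that phosphorylate the polymerase tail at other steps were not called either. Cdk12, needed for full expression of long genes, stood at 1896 and 2035 with DMSO and 1868 and 1790.1 with 4OHT (-0.10). Cdk13, its close relative, had 857 and 995 with DMSO and 903 and 919 with 4OHT (-0.02), and their cyclin Ccnk 633 and 765 with DMSO and 706 and 673 with 4OHT (-0.01). Cdk7, the kinase of TFIIH that acts at initiation and activates other kinases, had 571 and 719 with DMSO and 610.3 and 579.8 with 4OHT (-0.11). Ccnh, the cyclin of Cdk7, had 215 and 259 with DMSO and 258 and 298 with 4OHT (0.23, adjusted p = 0.156), and Mnat1, which holds the pair together, 408 and 428 with DMSO and 427 and 487 with 4OHT (0.12). Mnat1 shares 5474 bases with Trmt5 and 1847 with Six4, and reads there could belong to either gene. The Trmt5 row held deposited values of 141 and 260 at 8 min with DMSO, where Mnat1 had 196 and 323. Ccnh was called without number 2 of DMSO (0.36, adjusted p = 0.0463). Thus in the TFIIH module the 2 partners of the kinase had values above 0 and the kinase a value below 0, and none of them was called with all 4 libraries.

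The 2 largest polymerase subunits and the remaining 3 genes also gave no call. Polr2a, the largest subunit and the one with the tail, had 4648 and 4759 with DMSO and 4619.5 and 4213 with 4OHT (-0.09). Polr2b, the second largest subunit, had 1111 and 1309 with DMSO and 1163 and 1168 with 4OHT (-0.05). Eny2, a small protein of SAGA and of TREX-2, had 883 and 949.7 with DMSO and 756 and 930.4 with 4OHT (-0.13). Ints1 and Ints11 belong to Integrator, which cuts nascent RNA at paused polymerases, and Ints11 is its endonuclease. Ints1 stood at 97.6 and 94.9 with DMSO and 98.4 and 87.8 with 4OHT (-0.05) and Ints11 at 338 and 315 with DMSO and 303 and 281 with 4OHT (-0.16, adjusted p = 0.288).

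**Figure D3:**
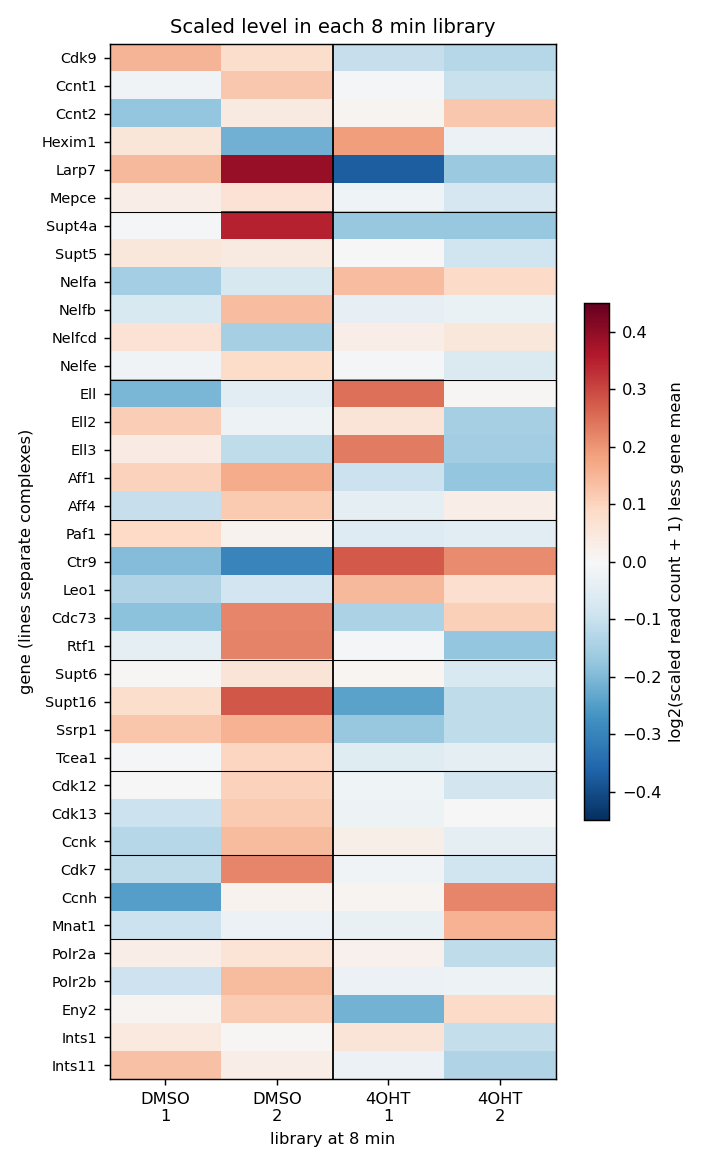
Level of the 37 genes (rows, with lines between complexes) in the 8 min libraries (columns), as log2(scaled read count + 1) less the mean of the gene. Red is above and blue below the gene's mean. Ctr9 and Leo1 are red in both 4OHT columns, Larp7, Supt16, Supt4a and Ssrp1 are blue in both, and number 2 of DMSO is the deepest red for Larp7, Supt4a and Supt16.

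Sequences just before the start sites are shown for the 3 genes called lower, with Hexim1 as an uncalled gene of the same particle as Larp7. The 3 genes were picked for their calls in these libraries, where 17.1% of all genes were called lower. The sequences are therefore a description, and no link to the calls was tested. RefSeq promoters (GRCm38.p6) were found for 30 of the 37 genes, and Mepce, Nelfcd, Nelfe, Ctr9, Tcea1, Ccnh and Eny2 were not matched. Each line gives the 250 bases before the start, 5′ to 3′ on the gene's strand, at chr3:127553350-127553599 (minus) for Larp7, chr11:87737301-87737550 (plus) for Supt4a, chr14:52197240-52197489 (minus) for Supt16 and chr11:103116075-103116324 (plus) for Hexim1. Capitals mark matches to the motifs searched on both strands.
Larp7: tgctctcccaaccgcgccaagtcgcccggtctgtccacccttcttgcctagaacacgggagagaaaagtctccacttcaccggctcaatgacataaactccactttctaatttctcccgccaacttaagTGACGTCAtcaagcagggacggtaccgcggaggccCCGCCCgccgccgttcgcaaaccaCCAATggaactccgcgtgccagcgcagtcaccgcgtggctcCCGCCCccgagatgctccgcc
Supt4a: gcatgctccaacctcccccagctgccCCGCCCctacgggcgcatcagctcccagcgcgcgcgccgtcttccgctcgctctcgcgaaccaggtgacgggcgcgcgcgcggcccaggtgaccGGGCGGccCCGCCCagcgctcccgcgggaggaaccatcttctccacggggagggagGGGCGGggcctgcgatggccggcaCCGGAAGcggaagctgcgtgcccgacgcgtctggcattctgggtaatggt
Supt16: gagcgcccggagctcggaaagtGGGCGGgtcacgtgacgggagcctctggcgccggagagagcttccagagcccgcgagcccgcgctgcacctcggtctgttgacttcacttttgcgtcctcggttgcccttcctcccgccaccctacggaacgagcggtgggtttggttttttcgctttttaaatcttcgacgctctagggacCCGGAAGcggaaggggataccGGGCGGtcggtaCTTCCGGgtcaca
Hexim1: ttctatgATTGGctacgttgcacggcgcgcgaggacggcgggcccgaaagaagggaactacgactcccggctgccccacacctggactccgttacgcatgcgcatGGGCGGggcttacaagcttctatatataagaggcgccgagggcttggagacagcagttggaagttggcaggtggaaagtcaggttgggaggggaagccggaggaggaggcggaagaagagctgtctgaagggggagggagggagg

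The motifs searched were the GC box GGGCGG, the CCAAT box CCAAT, the TATA box TATAAA, the ETS motif CCGGAAG, the palindromic NRF1 motif, the YY1 motif AAGATGGC and the cyclic AMP element TGACGTCA. A match is a description of the letters, not a bound site. Larp7 held 2 GC boxes, 1 CCAAT box and 1 cyclic AMP element, while Supt4a held 4 GC boxes and 1 ETS motif and Supt16 held 2 of each. Hexim1 held 1 GC box and 1 CCAAT box. Over the 30 promoters, a GC box was found in 25, against 32.7% of 32851 promoters of the same length, and an ETS motif in 8, against 6.91%. The CCAAT box was in 9 (33.8% of all promoters), the TATA box in 2 (12.4%, Nelfb and Polr2a), the cyclic AMP element in 2 (1.55%, Larp7 and Ell2), the YY1 motif in 1 (1.56%, Supt5) and the NRF1 motif in 0 (0.782%). The 30 promoters also had a median GC content of 62.2% and 22.5 CpG pairs, against 52.4% and 6 over all promoters, and base composition alone alters how often such motifs occur.

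Levels were compared between genes per kb of gene length at 8 min, as scaled reads per kb. Whether introns were counted is not given in the sources used here, and if they were not, this measure understates long genes. Whole gene length was used, and how far Pol II travelled by 8 min was not measured. Long genes may therefore be understated in either case. The 2 lowest genes below, Aff1 and Mnat1, were also the 2 longest, at 163 and 162 kb. In DMSO, Hexim1, a gene without introns of 3.4 kb, was the highest at 253 ± 33.3 (SD, n = 2), above Polr2a at 191 ± 3.18 and Eny2 at 90.1 ± 4.63. Supt4a, Ccnt2 and Ccnt1 followed at 62.4 ± 10.8, 56.6 ± 5.95 and 50.3 ± 3.36, neighbours whose libraries overlapped. Next came Supt16 at 41.3 ± 4.09, and Ssrp1, Aff4, Tcea1, Nelfe, Paf1, Polr2b and Cdk9 lay together between 31.1 and 33.9. At the low end stood Ell2 at 4.27 ± 0.28, Ints1 at 3.94 ± 0.077, Aff1 at 2.67 ± 0.0804 and Mnat1 at 2.59 ± 0.0885, the last 2 of which overlapped. With 4OHT the upper 3 were again Hexim1 at 282 ± 29.4, Polr2a at 179 ± 11.7 and Eny2 at 82.9 ± 12.1. Among the PAF1 genes Paf1 had 31.2 ± 1.16, Leo1 19.6 ± 0.471, Cdc73 13.1 ± 2.57, Ctr9 12.1 ± 0.61 and Rtf1 8.81 ± 1.14 with DMSO, and Ctr9 had 17.0 ± 0.54 with 4OHT.

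The 8 min label was then set against 0 min, where RNA had no labelling time and the pulled down material is the background of the method. On the deposited scale, 25 of the 37 genes rose with DMSO and 0 fell, against 47% of all genes that rose, 1.96% that fell and 49% called either way. With 4OHT 36 rose and 0 fell, against 74%, 0.828% and 74.8%. The median change was 2.16 with DMSO, where all genes had 1.25, and 3.20 with 4OHT, where all genes had 2.49. With median-of-ratios scaling of all 8 libraries the split was 21 higher and 3 lower with DMSO (31.1% and 26.1% of all genes) and 19 higher and 4 lower with 4OHT (30.3% and 27.3%), and the median of all genes was 0.10 and 0.11. Nelfe, Mnat1 and Ints1 were the lower ones with DMSO, joined by Aff1 with 4OHT. Lower is relative to the other genes here, since this scaling sets their typical change near 0. By spike-in RNA 25 were higher and 0 lower in both, against 46.8% of all genes higher with DMSO and 50.5% with 4OHT. The median of all genes was then 2.96 with DMSO and 3.08 with 4OHT. Nelfe, Mnat1, Ints1 and Aff1 had spike-in estimates above 0, below that median and uncalled. Leaving out 1 library gave 16 to 27 higher with DMSO, the lowest without number 2 of DMSO at 8 min (28.2% of all genes), and 31 to 37 with 4OHT. Without number 1 or number 2 of 4OHT at 0 min, the libraries whose 2-cell-like sums differed, 33 and 37 rose with 4OHT (62.6% and 78.5% of all genes).

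Eny2 changed most with time. Its deposited values with DMSO were 4.94 and 2.71 at 0 min and 423 and 716 at 8 min, and with 4OHT 2.73 and 11.3 at 0 min and 1005 and 1955 at 8 min. It rose by 6.88 ± 0.59 with DMSO (adjusted p = 9.79e-28) and 7.70 ± 0.59 with 4OHT (adjusted p = 4.31e-35). With DMSO this change ranked 8 of the 20662 genes tested. Eny2 shares 226 bases with Nudcd1, whose row held 47.9 and 42.6 at 0 min and 133 and 249 at 8 min with DMSO.

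The genes of the 7SK particle were also among those that rose far. Hexim1 stood with DMSO at 19.6 and 27.9 at 0 min and 449.8 and 587 at 8 min, a change of 4.40 ± 0.59 (adjusted p = 2.83e-12), and with 4OHT at 23.4 and 36.8 at 0 min and 1370.2 and 1869 at 8 min, a change of 5.72 ± 0.59. Mepce stood with DMSO at 5.27 and 3.39 at 0 min and 51.3 and 82.8 at 8 min (3.66 ± 0.62) and with 4OHT at 4.95 and 2.26 at 0 min and 138 and 209 at 8 min (5.28 ± 0.62). Larp7 rose by 2.79 and 3.61. Cyclin genes Ccnt1 and Ccnt2 rose by 2.85 and 3.18 with DMSO, whereas Cdk9 had 61.4 and 67.1 at 0 min and 107 and 160.1 at 8 min with DMSO and its change of 1.02 ± 0.58 was not called (adjusted p = 0.14). With 4OHT all 6 genes of this group rose on the deposited scale. Cdk9 did so by 2.49, the same as the median of all genes, and under median-of-ratios scaling it was not called (0.02, adjusted p = 0.948). The 7SK RNA, with 7279.7 and 3932 at 0 min and 3083 and 5370.2 at 8 min with DMSO, had no call (-0.40, adjusted p = 0.734).

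All 5 PAF1 genes rose under both treatments on the deposited scale, from 1.57 (Paf1) to 3.32 (Rtf1) with DMSO and from 3.02 (Paf1) to 4.45 (Ctr9) with 4OHT. Under median-of-ratios scaling Paf1 was not called with DMSO (0.35) or 4OHT (0.56), nor Cdc73 with 4OHT (0.64). Ctr9 had 29.8 and 16.5 at 0 min and 165 and 241 at 8 min with DMSO and 28.4 and 42.1 at 0 min and 634 and 958 at 8 min with 4OHT. In DSIF and NELF, Supt5 rose by 2.54, Supt4a by 2.24, Nelfa by 2.06 and Nelfcd by 2.02 with DMSO. Nelfb (1.26, adjusted p = 0.0648) and Nelfe (0.31, adjusted p = 0.697) were not called with DMSO. Nelfe had 98.0 and 85.4 at 0 min and 87.3 and 147 at 8 min with DMSO, so its times overlapped. With 4OHT all 6 rose on the deposited scale, Nelfe by 1.54, which under median-of-ratios scaling was called the other way (-0.93, adjusted p = 0.0338). Spike-in scaling put Nelfe at 2.26 with 4OHT, uncalled.

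In the super elongation complex, Ell had deposited values of 20.5 and 15.0 at 0 min and 182 and 319.9 at 8 min with DMSO and rose by 3.71 ± 0.58. Aff4 and Ell2 rose by 2.08 and 1.69, and Aff1 (0.76) and Ell3 (1.09) were not called. With 4OHT all 5 rose on the deposited scale, Aff1 least at 1.32, which under median-of-ratios scaling was called lower (-1.17, adjusted p = 0.00256). Spike-in scaling put Aff1 at 2.06 with 4OHT, uncalled. Of the chaperones and TFIIS, Tcea1 alone was called with DMSO (1.78), and Supt16 (1.36), Supt6 (0.99) and Ssrp1 (0.78) were not. With 4OHT all 4 rose on the deposited scale, by 1.79 to 2.90. Under median-of-ratios scaling, however, Supt16, Supt6 and Ssrp1 had values below 0, uncalled there. Quantile normalization called Ssrp1 lower (-0.91, adjusted p = 0.0208), whereas spike-in scaling put it at 2.52, uncalled.

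Cdk12 and Ccnk rose by 2.59 and 2.49 with DMSO, and Cdk13 (1.12) was not called. Of the TFIIH kinase module, Ccnh and Cdk7 rose by 3.03 and 2.51, and Mnat1, with 194 and 168 at 0 min and 196 and 323 at 8 min, was not called (0.48). With 4OHT Mnat1 rose 3.49-fold on the deposited scale and was lower by median-of-ratios scaling (-0.68, adjusted p = 0.0447), with a spike-in log2 estimate of 2.54, uncalled. Ints11 and Polr2b rose by 2.71 and 2.16, and Polr2a was not called (0.89, adjusted p = 0.341). Ints1 had the lowest value of all members, with 60.7 and 74.8 at 0 min and 46.7 and 71.5 at 8 min with DMSO (-0.22 ± 0.59, adjusted p = 0.787) and 55.4 and 94.8 at 0 min and 131 and 185 at 8 min with 4OHT (1.09 ± 0.59, adjusted p = 0.0808). It was the 1 member not called with 4OHT, and under median-of-ratios scaling it was called lower with DMSO (-1.45, adjusted p = 0.000892) and with 4OHT (-1.37, adjusted p = 0.00102). Spike-in scaling put Ints1 at 1.65 with DMSO and 1.81 with 4OHT, uncalled in both. The 2 Integrator genes thus lay far apart, since Ints11 rose by 3.84 with 4OHT.

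**Figure D4:**
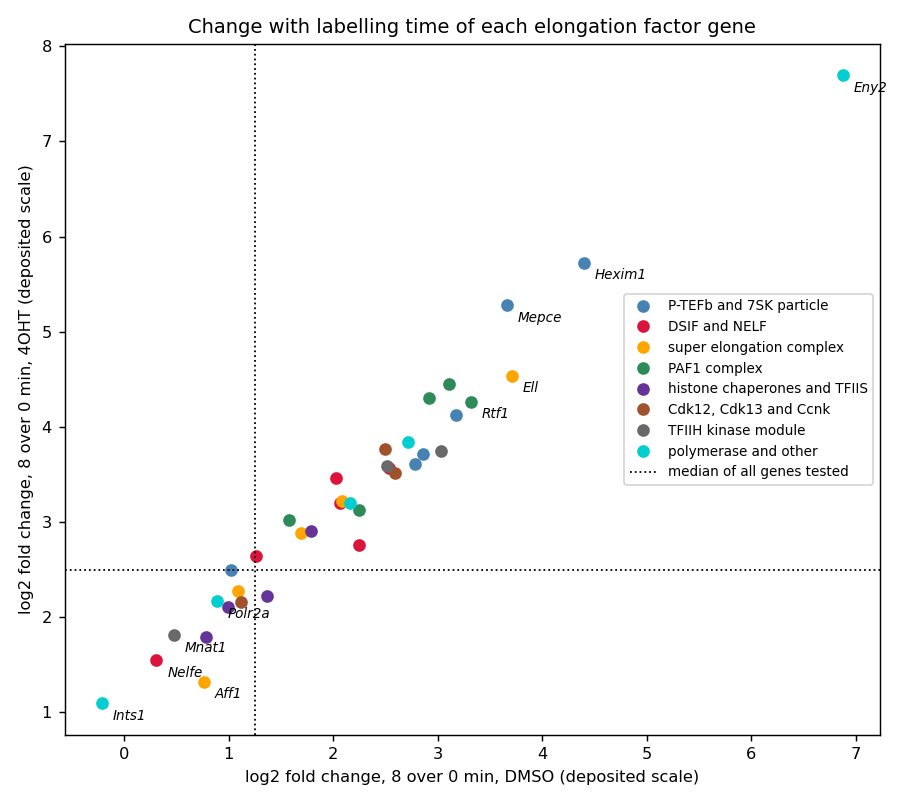
Log2 fold change of 8 over 0 min with DMSO (x axis) and with 4OHT (y axis) on the deposited scale for the 37 genes, coloured by complex, with dotted lines at the median of all genes tested (1.25 and 2.49). Eny2 lies at the upper right at 6.88 and 7.70, Hexim1, Mepce and Ell follow, and Ints1 lies lowest at -0.22 and 1.09.

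The time change of these genes and their length were weakly related. Over the 37 genes the Spearman rank correlation of the change with DMSO and gene length was -0.09, against -0.16 over 13951 protein-coding genes, a description across genes that share the same libraries. With the mean 0 min value in DMSO, the rank correlation over the 37 genes was -0.53 for the change with DMSO and -0.57 for that with 4OHT. The 0 min value is itself part of the change with DMSO. The part of this background in the differences between genes was not tested. Of the 37 genes, 8 were under 10 kb, with a median change of 1.33 (all protein-coding genes in that range 1.5), and 13 were between 10 and 30 kb, with 2.71 (1.73). The 14 genes between 30 and 100 kb had a median of 2.12 (1.35). The 2 genes above 100 kb, Mnat1 and Aff1, had 0.62 (0.78). The relative change with 4OHT at 8 min had a rank correlation with length of 0.14 over the 37 genes and 0.14 over 13663 protein-coding genes.

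**Figure D5:**
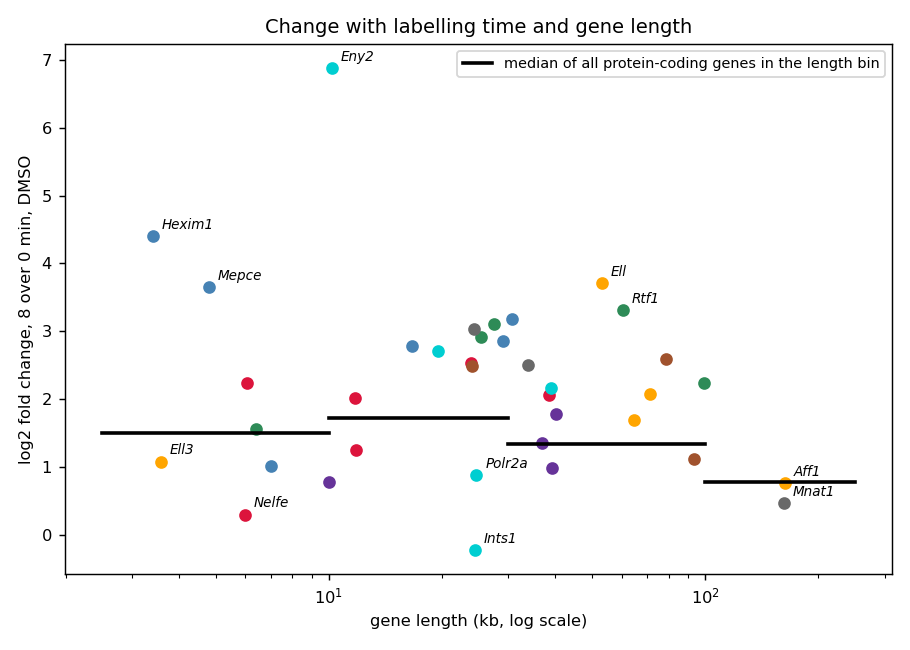
Log2 fold change of 8 over 0 min with DMSO (y axis, deposited scale) against gene length in kb (x axis, log scale) for the 37 genes, coloured by complex as in the plot of both treatments. Black bars are medians of all protein-coding genes from 0 to 10, 10 to 30, 30 to 100 and above 100 kb. The outer ends of the first and last bar are drawn a little beyond the shortest and longest member. Eny2, Hexim1 and Mepce lie high among short genes, and Mnat1 and Aff1, the 2 longest, lie near or below the median of their bin.

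At 0 min, 4OHT and DMSO did not differ by the test for any of the 37 genes, nor for any of all genes tested (0% called higher, lower or either way). At an unadjusted p under 0.05, limma gave 0 of the 37 and 550 of all genes, and edgeR on recovered reads gave 0 of the 37 after adjustment, with 147 of all genes higher and 33 lower. Number 2 of 4OHT at 0 min was the highest library for 33 of the 37 genes. The largest estimates were Ccnh (17.5 and 15.5 with DMSO and 25.9 and 43.5 with 4OHT, 0.99) and Ell (20.5 and 15.0 with DMSO and 23.4 and 48.2 with 4OHT, 0.90), where that library was high. The lowest was Mepce (5.27 and 3.39 with DMSO and 4.95 and 2.26 with 4OHT, -0.25). Both 4OHT libraries lay above both DMSO libraries for 5 of the 37 genes and below for 1, against 15.4% and 3.54% of all genes. The excess of number 2 of 4OHT over the other 0 min libraries had a Spearman rank correlation with gene length of 0.50 over the 37 genes and 0.33 over all protein-coding genes.

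The change of the 4OHT effect from 0 to 8 min was tested as an interaction, and 0 of the 37 genes passed. Among all genes 0.387% passed, 80 in all and all of them higher, with 0% lower. At an unadjusted p under 0.05 there were 0 of the 37 genes by limma, against 3630 of all genes. After adjustment edgeR called 0, against 0.479% of all genes. Without number 2 of 4OHT at 0 min 9.43% of all genes passed and again 0 of the 37. Estimates ran from 0.52 ± 0.83 for Supt4a to 1.62 ± 0.88 for Mepce, with a median of 1.12 for the 37 genes and 1.15 for all genes.

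Other genes of the pathway outside the 37 were read from a list of 62, of which 61 were in the table (Supt4b had no row). Relative to the other genes at 8 min, 8 of the 61 rose and 7 fell with 4OHT, with a median change of -0.08, against 18.8% and 17.1% of all genes. The 3 of smallest p were Aff3, a relative of Aff4 (188 and 166 with DMSO and 291 and 344 with 4OHT, 0.84 ± 0.13, adjusted p = 1.67e-05), Ints6 of Integrator (1590.0 and 1607 with DMSO and 1009 and 956 with 4OHT, -0.70 ± 0.11, adjusted p = 2.14e-05) and Brd2, a BET protein that reads acetylated histones (1721 and 1960.0 with DMSO and 1321 and 1298 with 4OHT, -0.49 ± 0.11, adjusted p = 0.00158). Named after their values were seen, the others that rose were Ints4 (0.50), Ints10 (0.48), Mllt10 (0.40), Gtf2f2 (0.36), Brd3 (0.34), Ice1 (0.33) and Ctdp1 (0.33). Those that fell were Polr2e (-0.67), Polr2k (-0.57), Eaf2 (-0.52), Ints5 (-0.34) and Eaf1 (-0.29). Both shares of the 61 lay below those of all genes, so calls in both directions among Integrator and BET genes are no result about these families. Eaf1 and Eaf2, which bind Ell proteins, were both lower, and their difference from Ell, which was not called, was not tested. The calls of these related genes were not followed over the alternatives. On the deposited scale 43 of the 61 rose with 4OHT at 8 min, where 58.7% of all genes did, 47 rose with time with DMSO (47% of all genes) and 58 with 4OHT (74%), and 0 fell in any of these comparisons by limma.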

How the data were processed

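One table of deposited signal values covered all 8 libraries. The authors used Bowtie2, STAR 2.7 and bcl2fastq with genome build mm10, per the submitters' processing notes. The counting rule, strand and normalization are not given in the sources used here. Each deposited signal value was the read total of a row over a divisor fixed for the library: 99.9949% to 100% of values came back within 0.01 of a whole read. Of 38971 rows, 1112 repeats or structural RNAs and 60 spike-ins were left out of tests. Columns were assigned to groups by name, and one that does not name 4OHT was taken as DMSO.

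Values were analysed as log2(signal + 1) for genes of at least 10 in at least 2 libraries, by two-sided limma tests (version 3.58.1, R 4.3.3) with a trended variance prior, fitted to group means of all 8 libraries. For the relative comparison the 8 min libraries were first scaled by median-of-ratios size factors of 0.479, 0.754, 1.33 and 2.10. A gene was called at a Benjamini-Hochberg adjusted p under 0.05 over all genes tested. Fold changes on the log2(signal + 1) scale understate low genes. The alternatives were other pseudocounts, filters, scalings and library sets, each library left out, edgeR 4.0.16 and DESeq2 1.42.0 on recovered reads, and the library number as a block. The columns carry numbers 1 and 2 at both times, in conflict with the titles, and their deviations correlated at 0.465 at 0 min, 0.0992 at 8 min and 0.0205 to 0.156 across times, so they were not treated as pairs. No 2 libraries shared more than 1.12% of equal read counts. Scripts were tested on simulated data.

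All 37 genes are named. Full statistics go to the called genes, up to 12 of smallest p in each direction at 8 min, and to the largest and smallest change in each complex. Up to 3 related genes were named by smallest p. Members, lists and tests were chosen with earlier results of these data known. Positions, lengths and promoters are from RefSeq (GRCm38.p6), where 27329 rows matched a symbol.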

Additional observations from a re-analysis of the deposited data

How the results depend on the processing

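With 2 libraries a group, whole-table scaling decides the deposited comparison at 8 min, where 29 of 37 genes were higher: 0 under median-of-ratios, quantile or spike-in scaling, 6 with no filter, 13 with edgeR, 19 with only the 8 min libraries, and 0 to 33 without 1 library. Signs were followed only for the genes given full statistics there, so the lists below are not complete. The median of all 37 genes was itself -0.14 under median-of-ratios scaling. Of the followed genes that were called, those whose sign turned had, under that scaling, Ccnk -0.087, Ints1 -0.12, Nelfe -0.14, Supt6 -0.13, Polr2b -0.12, Rtf1 -0.25, Cdk7 -0.18 and Ints11 -0.23. Under quantile normalization they had Ccnk -0.036, Ints1 -0.033, Nelfe -0.10, Supt6 -0.063, Polr2b -0.049, Rtf1 -0.22, Cdk7 -0.14 and Ints11 -0.21, and under spike-in scaling Rtf1 -0.046 and Ints11 -0.026. For the relative comparison (1 higher, 3 lower), lower calls were 1 with no filter (6.94% of all genes) and 5 at a minimum of 100 (20.4%). They were 5 by quantile normalization (17%), 5 by DESeq2 (16.9%) and 1 by centring (15.9%). In both directions calls were 0 with no trend (22.6% of all genes called) or with all 8 libraries scaled together (0.145%). Without 1 library they were 1 to 3 higher and 1 to 3 lower. Over all 20008 genes the calls without the trend were 2370 higher and 2152 lower, against 3770 and 3415. For 8 against 0 min with 4OHT (36 higher), median-of-ratios scaling gave 19 higher and 4 lower (30.3% and 27.3% of all genes). Quantile normalization gave 18 and 5 (29.1% and 28.6%). With DMSO (25 higher), lower calls were 3 and 4 under these scalings, and leaving out 1 library gave 16 to 27 higher. With the library number as a replicate block, 37 were higher at 8 min (82.7% of all genes), 2 higher and 5 lower in the relative comparison (21.3% and 19.7%), with Ell (adjusted p = 0.0437), Aff1 (0.0331) and Ssrp1 (0.0338) called in addition, and 12 passed the interaction (30.1% of all genes), where 0 did without it, so these shares of the 37 were near or below those of all genes except at 8 min. At 0 min 0 members were called under every alternative run. The cause of these differences was not tested. Levels per kb of exon were not run, since the reference gave no exon lengths.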
